A study of Drosophila melanogaster with 6 samples.

Results

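The genes of trehalose, glycogen and sugar transport were followed in fly heads that lack the microRNA miR-14, and in such heads when only the insulin-producing cells express miR-14. The set comprised Tret1-1, Tret1-2, UGP, Tps1, Treh, Glys, Glyp, Glut1 and AGBE. It was taken from the platform annotation as every probe set whose single gene symbol is one of these names. A probe set is a group of short probes read together as 1 value. All 9 genes were measured, by 11 probe sets of 18769 tested, among 11982 genes that had a probe set with a single symbol. Glut1 had 3 probe sets and each other gene had 1. Glys and Glyp are the current spellings of GlyS and GlyP and were matched through synonyms.

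RNA came from whole heads of Drosophila melanogaster males aged 5 days and was hybridised to Affymetrix arrays, with 2 biological replicates in each of 3 groups. Control flies were wild-type. Mutant flies were homozygous for a dme-miR-14 mutation. Rescue flies carried the same homozygous mutation and in addition expressed dme-miR-14 in the insulin-producing cells (IPCs), brain neurons that release insulin-like peptides. The sources used here name no driver line, no control for genetic background and no number of flies behind a replicate. No miR-14 level was analysed here. The design asks which transcripts are raised in the mutant and brought back in the rescue.

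Trehalose, a disaccharide of glucose, is the main blood sugar of insects. It is made mostly in the fat body from glucose 6-phosphate and UDP-glucose, is released into the hemolymph, enters tissues through trehalose transporters and is split again into glucose by trehalase. Glycogen, the branched storage polymer of glucose, is built from the same UDP-glucose and is broken down by phosphorylase. In the fly brain, surface glia of the blood-brain barrier take up trehalose and feed neurons, and insulin-like and adipokinetic peptides set the balance between circulating and stored sugar.

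The values are RMA intensities on a linear scale, between 5.6 and 16778.3 over the 6 arrays, and each difference is given on the log2 scale with its standard error (SE) from a limma fit over all probe sets. A difference passed the test when its adjusted p (Benjamini-Hochberg) was under 0.05. The median intensity was 59.25 to 60.2 on every array, and replicates correlated at 0.994 to 0.998 across probe sets. The 5' to 3' ratio of actin, a sign of RNA integrity measured by control probe sets, was lowest on control replicate 2 (0.0581), was between 0.0941 and 0.137 on the other control array and the mutant arrays, and reached 0.144 and 0.153 on the rescue arrays. Control replicates differed by at least 1.5-fold in 571 probe sets, against 104 for mutant and 52 for rescue replicates. No member was near a pair of dim control probe sets, of a tryptophan gene and an artificial tag sequence, which read between 8.4 and 15.7.

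The measured marker genes of head cell types all read above those control probe sets, and some moved with the groups. The summed intensity of 4 fat body markers was 25725.5 to 27299.6 in control heads, 19147.3 to 19981.3 in mutant heads and 23752.2 to 24521.8 in rescue heads. The storage protein gene Lsp2 is among them, and fell in the mutant (-0.76 ± 0.081 SE, adjusted p = 0.00215) and rose again in the rescue (0.67 ± 0.081, adjusted p = 0.0129, limma), while apolpp read 8676.8 to 10217.3 over all arrays. Not all of the list came back: fit, a fat body gene of the head, fell by 2.29 in the mutant (adjusted p = 0.000185) and was still below control in the rescue (-1.67, adjusted p = 0.000732), as was Apoltp (-0.36, adjusted p = 0.0297, limma). The summed intensity of 7 glial markers of 8 listed was 8348.5 to 9059.9 in control heads, 9586.9 to 9999.2 in mutant heads and 10007.4 to 10507 in rescue heads. Its genes were split in the mutant. There moody, a receptor gene of the surface glia, and nrv2 rose (0.64 and 0.65, adjusted p = 0.00275 and 0.0166), wrapper fell (-0.32, adjusted p = 0.0485), and the other 4 did not pass (limma). Among these the pan-glial repo read 680.1 and 680.8 in mutant heads, below its 774.2 and 859.4 in control heads. On the rescue arrays 2 photoreceptor markers of 5 listed summed to 8519.7 and 8678.7, below the 11268.5 to 12662.7 of the other arrays, and 5 hemocyte (blood cell) markers summed to 1591.1 and 1614.4, above the 597.9 to 1250.2 of the other arrays. The summed intensity of 5 neuronal markers of 6 listed was 4297.6 to 4713.2 in control heads, 3943.4 to 4088 in mutant heads and 3530.5 to 3776.9 in rescue heads, so the groups were apart. Of these only fne passed in the mutant (-0.35, adjusted p = 0.0391), and fne and Rdl were below control in the rescue (-0.68 and -0.76, adjusted p = 0.00385 and 0.00911, limma). In the rescue elav and brp were also lower than in control heads, without passing. The neuronal list was not uniform: nSyb read 1495 and 1417 in rescue heads and 1278.3 and 852.9 in control heads. This rise of nSyb did not pass (0.48, adjusted p = 0.134, limma). The sum of 4 muscle markers of 7 listed was lowest on the mutant arrays (1724.1 and 1729.4), beside 1886.6 and 2444.2 in control heads and 2042.9 and 2272.9 in rescue heads. In whole heads, fewer cells of a type and less RNA per cell cannot be told apart, and the part of cell composition in the results that follow was not tested.

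The trehalose transporter gene Tret1-1, whose product carries trehalose across the membrane of surface glia, fell in the mutant. Its intensity was 4787.6 and 4345.2 in control heads, 3339.2 and 3441.1 in mutant heads and 4125.6 and 3853.6 in rescue heads. Both mutant arrays lay below both control arrays, and the rescue arrays lay between the groups without overlap with either. The fall from control to mutant was 1.35-fold (-0.43 ± 0.086 SE on the log2 scale, 95% interval -0.63 to -0.22, adjusted p = 0.0235, limma). The difference between rescue and mutant was 0.23 ± 0.086 (adjusted p = 0.304), and that between rescue and control was -0.19 ± 0.086 (adjusted p = 0.18, limma), so neither passed. The change was -0.41 and -0.45 without mutant replicates 1 and 2 (adjusted p = 0.139 and 0.122) and -0.43 without either rescue array (adjusted p = 0.0605), so it did not pass in these fits, and it passed without control replicate 1 (-0.36, adjusted p = 0.0356) or 2 (-0.50, adjusted p = 0.0211). With the replicate number as a block the adjusted p was 0.0507. Of the 4 fat body markers, Lsp2 and fit followed the same order of groups, while apolpp was lowest in control heads and Apoltp in rescue heads. Among the glial markers moody and nrv2 rose in the mutant and wrapper fell. The parts of fat body and glial RNA in the Tret1-1 difference were not tested.

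Tret1-2, the paralogue that lies next to Tret1-1 among coding genes of RefSeq, read 80.1 and 67.9 in control heads, 55 and 60 in mutant heads and 73.4 and 68.5 in rescue heads. The mutant arrays were the lowest pair, and rescue and control overlapped. The difference of -0.36 ± 0.11 between mutant and control did not pass (adjusted p = 0.0778, limma), and was -0.24 without control replicate 1 (adjusted p = 0.133). It did pass without control replicate 2 (-0.48, adjusted p = 0.0329) and with a covariate for the 5' to 3' ratios (-0.50, adjusted p = 0.0194, limma). Rescue and mutant differed by 0.30 ± 0.11 (adjusted p = 0.27). Whether RNA of either paralogue binds probes of the other was not tested.

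UGP, the gene of the UDP-glucose pyrophosphorylase that makes the sugar donor shared by trehalose and glycogen synthesis, had the largest difference of the 11 probe sets. It read 67.4 and 90.5 in control heads, 105.4 and 98.3 in mutant heads and 272.4 and 194.1 in rescue heads. The rescue arrays stood well above the other 4, and the mutant arrays were just above the control arrays. UGP was 2.26-fold higher in rescue than in mutant heads (1.18 ± 0.19 SE, 95% interval 0.73 to 1.62, adjusted p = 0.0384) and 2.94-fold higher than in control heads (1.56 ± 0.19, 95% interval 1.11 to 2.01, adjusted p = 0.00389, limma). Mutant and control differed by 0.38 ± 0.19, which did not pass (adjusted p = 0.245, limma), and this value was 0.17 and 0.59 without control replicates 1 and 2. The rise over the control passed whichever array was left out (1.31 to 1.80, adjusted p from 0.00325 to 0.0299). The rise over the mutant was lost when any mutant or rescue array was left out. It was then 1.23 and 1.13 without mutant replicates 1 and 2 (adjusted p = 0.239 and 0.247) and 0.93 and 1.42 without rescue replicates 1 and 2 (adjusted p = 0.226 and 0.0801). It also missed the threshold with 16 added before the logarithm (1.06, adjusted p = 0.0588) and with the replicate number as a block (adjusted p = 0.102).

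**Figure D1:**
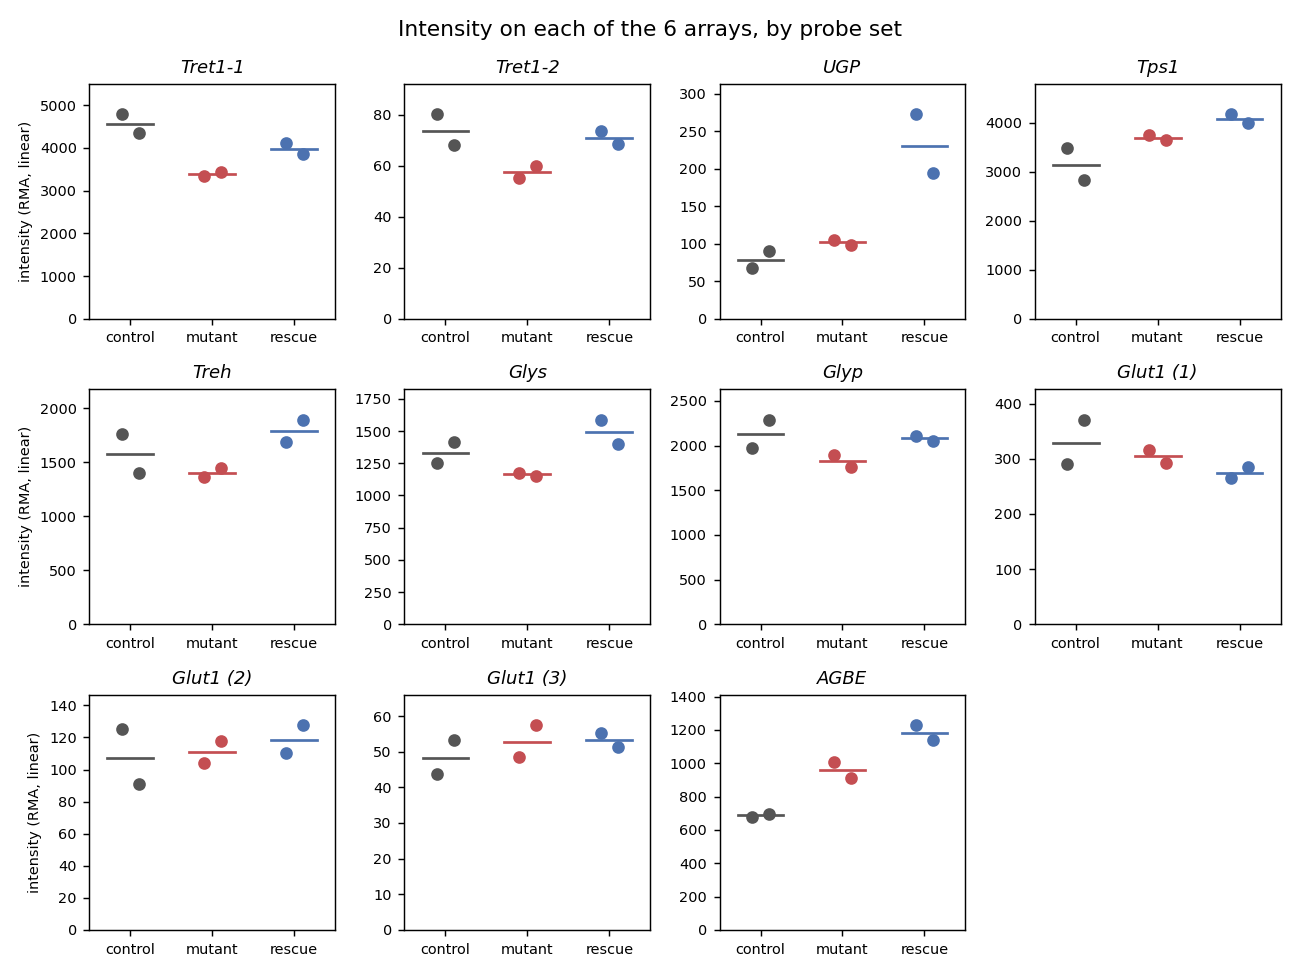
Intensity (RMA, linear scale from 0) of the 11 probe sets on the 6 arrays, with 1 panel per probe set, 1 point per array and a line at the mean of the log2 values of each group. Numbers after Glut1 tell its 3 probe sets apart. UGP stands highest on the rescue arrays (272.4 and 194.1), AGBE is ordered control, mutant, rescue, and Tret1-1 is lowest on the mutant arrays (3339.2 and 3441.1).

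Tps1 encodes trehalose-6-phosphate synthase, the enzyme that joins UDP-glucose and glucose 6-phosphate. Its intensity was 3478.4 and 2827.1 in control heads, 3743.3 and 3651.2 in mutant heads and 4171.2 and 3996.8 in rescue heads, so the 3 groups did not overlap and the rescue was the highest. None of its differences passed: 0.24 ± 0.11 for mutant against control (adjusted p = 0.214), 0.14 ± 0.11 for rescue against mutant (adjusted p = 0.654) and 0.38 ± 0.11 for rescue against control (adjusted p = 0.0674, limma). The control replicates were far apart in this gene. Against control replicate 2 alone, mutant and rescue were higher by 0.39 (adjusted p = 0.0242) and 0.53 (adjusted p = 0.00713), and against control replicate 1 alone by 0.088 and 0.23 (adjusted p = 0.607 and 0.174).

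Treh, the trehalase gene whose product splits trehalose into glucose, read 1761 and 1405.2 in control heads, 1363.6 and 1446.1 in mutant heads and 1685.6 and 1893 in rescue heads. The rescue arrays were above the mutant arrays, and the wide control pair overlapped both. Its difference between rescue and mutant was 0.35 ± 0.12 (95% interval 0.055 to 0.64), which did not pass (adjusted p = 0.288, limma).

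AGBE, which encodes the glycogen branching enzyme, was above control in both the mutant and the rescue. It read 677.6 and 696.4 in control heads, 1010.1 and 909.4 in mutant heads and 1227.6 and 1139 in rescue heads. The control replicates were close, and the 3 groups were fully apart in the order control, mutant, rescue. The rise from control to mutant was 1.40-fold (0.48 ± 0.088 SE, adjusted p = 0.0172), and rescue heads were 1.72-fold above control (0.78 ± 0.088, 95% interval 0.58 to 0.99, adjusted p = 0.00293, limma). Rescue and mutant differed by 0.30 ± 0.088, which did not pass (adjusted p = 0.191). The mutant call was lost when either mutant array was left out (0.40 and 0.56, adjusted p = 0.119 and 0.0592), while the rescue call held without any 1 array (adjusted p from 0.00386 to 0.0411).

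Glys, the glycogen synthase gene, read 1252.8 and 1412.5 in control heads, 1174.6 and 1154 in mutant heads and 1587.3 and 1400.3 in rescue heads, with the mutant pair the lowest. The differences were -0.19 ± 0.098 for mutant against control (adjusted p = 0.259) and 0.36 ± 0.098 for rescue against mutant (adjusted p = 0.169, limma), and neither passed. Glyp, the gene of glycogen phosphorylase, which releases glucose 1-phosphate from glycogen, read 1976.1 and 2288.9 in control heads, 1900.6 and 1757.5 in mutant heads and 2113 and 2052.7 in rescue heads. Its mutant arrays were again the lowest pair and its control and rescue arrays overlapped. The differences were -0.22 ± 0.097 (adjusted p = 0.201) and 0.19 ± 0.097 (adjusted p = 0.478, limma) in the same order.

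Glut1, a glucose transporter gene, showed no called difference in any of its 3 probe sets, and the probe sets did not share a direction. The brightest (1627735_at) read 290.9 and 370.6 in control heads, 315.5 and 293.2 in mutant heads and 265.5 and 284.3 in rescue heads. Its rescue arrays were the lowest pair, at -0.26 ± 0.12 against control (adjusted p = 0.211), and it was -0.43 against control replicate 2 alone (adjusted p = 0.0203) but -0.082 against control replicate 1 alone (adjusted p = 0.659, limma). The probe set 1634033_s_at read 91.2 to 127.6 and 1628757_at 43.7 to 57.4 over the 6 arrays, with groups overlapping in every comparison and differences from control of 0.051 to 0.15. The 95% intervals of these 2 probe sets for rescue against control ran from -0.23 to 0.53 and from -0.16 to 0.44. Changes within these intervals were not excluded with 2 arrays a group.

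Over the set, 1 of 11 probe sets was higher (AGBE) and 1 lower (Tret1-1) in mutant than in control heads, where 10.8% of all probe sets passed, 6.88% higher and 3.88% lower. Between rescue and mutant 1 of 11 was higher (UGP) and none was lower, beside 1.4% of all probe sets passing, 0.693% higher and 0.709% lower. By an unadjusted p of under 0.05 there were 6 higher and none lower, beside 5.4% and 8.11% of all probe sets (limma). Between rescue and control 2 of 11 were higher (UGP and AGBE) and none was lower, beside 12.1%, of which 6.83% were higher and 5.25% lower. By the unadjusted p 3 were higher and none lower, beside 13.6% and 16.7% (limma). Of the 11 probe sets 0 rose in the mutant and then fell in the rescue (limma), beside 76 of all 18769 (0.405%). AGBE, which rose in the mutant, read higher on both rescue arrays than on both mutant arrays. These comparisons share arrays, so their counts are not independent of each other.

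**Figure D2:**
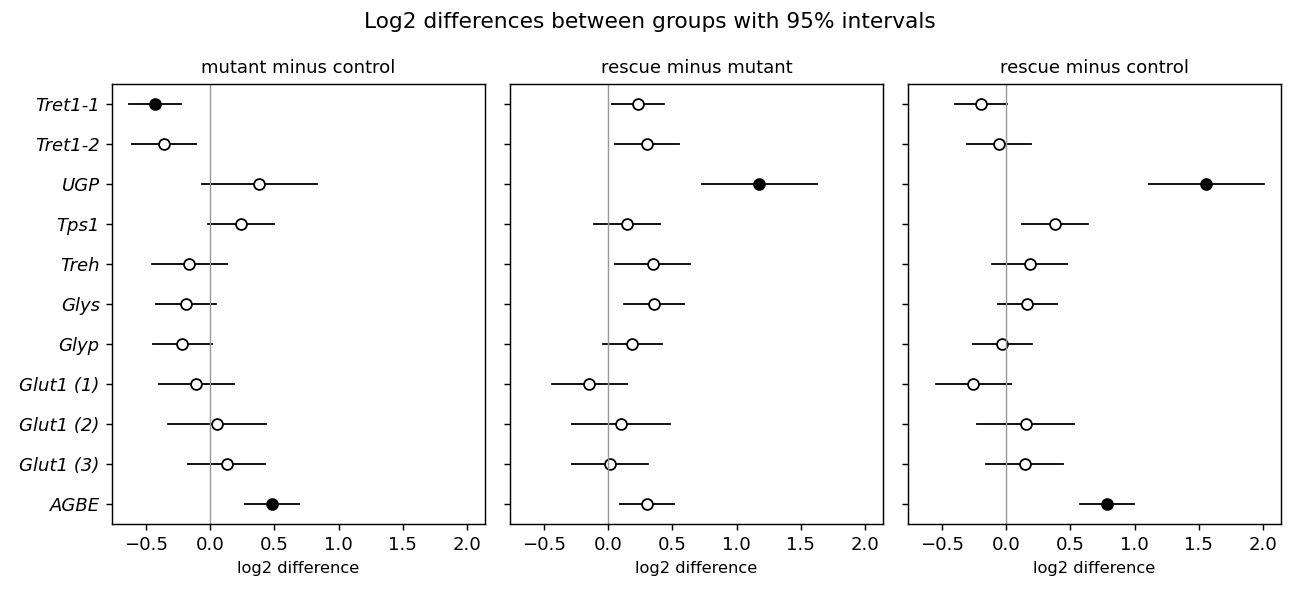
Log2 differences of the 11 probe sets in the 3 comparisons, with points at the estimate and bars for the 95% interval of the limma fit. Filled points passed the adjusted threshold of 0.05: Tret1-1 (-0.43) and AGBE (0.48) between mutant and control, UGP (1.18) between rescue and mutant, and UGP (1.56) and AGBE (0.78) between rescue and control.

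Against the mutant the members lay mostly on the higher side in the rescue, and less clearly so against control. Both rescue arrays were above both mutant arrays for 8 of 11 probe sets, and below them for 1, the brightest of Glut1, beside 21% and 28.1% of all probe sets. With the brightest probe set of each gene, the median difference between rescue and mutant was 0.30 over the 9 genes and -0.015 over all probe sets. Between mutant and control 3 probe sets were apart upward and 4 downward, beside 23.9% and 30.9%, and the median over the 9 genes was -0.16 against -0.034. Between rescue and control 3 were apart upward and 2 downward, beside 23.8% and 35.8%, with medians of 0.16 and -0.049.

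A wider list of 46 other genes of the same routes held 43 that were measured, each taken by its brightest probe set. Between mutant and control 4 of the 43 rose and 5 fell, beside the same 6.88% and 3.88% of all probe sets. Between rescue and control 9 rose and 2 fell, beside 6.83% and 5.25%. Between rescue and mutant none passed (limma), and by the unadjusted p 12 were higher and 2 lower, against 5.4% and 8.11% of all probe sets.

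Among the 11 genes of trehalose metabolism and its hormone, Pgi and Pgm1 rose in the mutant and both stood above control in the rescue too. Pgi encodes the phosphoglucose isomerase that interconverts glucose 6-phosphate and fructose 6-phosphate, and read 2455.2 and 2350.4 in control heads, 3717.5 and 3341.8 in mutant heads and 4354.1 and 4009.4 in rescue heads. Pgm1, a phosphoglucomutase gene whose product makes the glucose 1-phosphate that UGP uses, read 1072.1 and 1009.5, then 1501.2 and 1413.6, then 1983.3 and 1858.2 in the same order. For both genes the groups were apart in the order control, mutant, rescue. Pgi rose by 0.55 ± 0.090 in the mutant (adjusted p = 0.0115) and by 0.80 ± 0.090 in the rescue against control (adjusted p = 0.00301, limma). Pgm1 rose by 0.49 ± 0.083 (adjusted p = 0.0135) and by 0.88 ± 0.083 (adjusted p = 0.00138, limma). Their rescue calls held without any 1 array, while their mutant calls did not hold in every such fit.

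The genes CG5171, Pgm2a and Hex-C of that list rose in the rescue against control without passing in the mutant. The difference was 0.93 ± 0.15 for CG5171, which encodes a protein with a trehalose-phosphatase domain (adjusted p = 0.0119), 0.64 ± 0.12 for the phosphoglucomutase-family gene Pgm2a (adjusted p = 0.0203) and 0.53 ± 0.11 for the hexokinase gene Hex-C (adjusted p = 0.022, limma). CG5171 read 647.3 and 472.7 in control heads, 842.3 and 746.1 in mutant heads and 1002.9 and 1113 in rescue heads, and its mutant difference was 0.52 ± 0.15 (adjusted p = 0.0809). The remaining 6 genes of the list passed in no comparison, among them Akh, the adipokinetic hormone gene, at 41.3 to 49.7 over all arrays, and the gene of its receptor AkhR at 523.7 to 684.4.

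Of the 7 measured genes of glycogen handling, 1 passed. Gyg, the gene of glycogenin, which primes new glycogen chains, read 408.5 and 517.8 in control heads, 313.8 and 254.8 in mutant heads and 278.7 and 270 in rescue heads. Mutant and rescue overlapped and both were below control. Gyg fell by 0.70 ± 0.14 in the mutant (adjusted p = 0.0239) and by 0.75 ± 0.14 in the rescue against control (adjusted p = 0.0193, limma). With 1 array left out these differences ranged from -0.87 to -0.53 and from -0.92 to -0.57, and neither call held in every such fit. With a covariate for the 5' to 3' ratios the rescue call of Gyg was lost. In this probe set, the brighter of 2 for Gyg, the primer gene moved opposite to the branching enzyme gene AGBE. CG9485, which encodes the debranching enzyme, read 795.3 and 762.3 in control heads, 693.4 and 656.1 in mutant heads and 892.4 and 779.7 in rescue heads, and did not pass (adjusted p from 0.205 to 0.507).

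**Figure D3:**
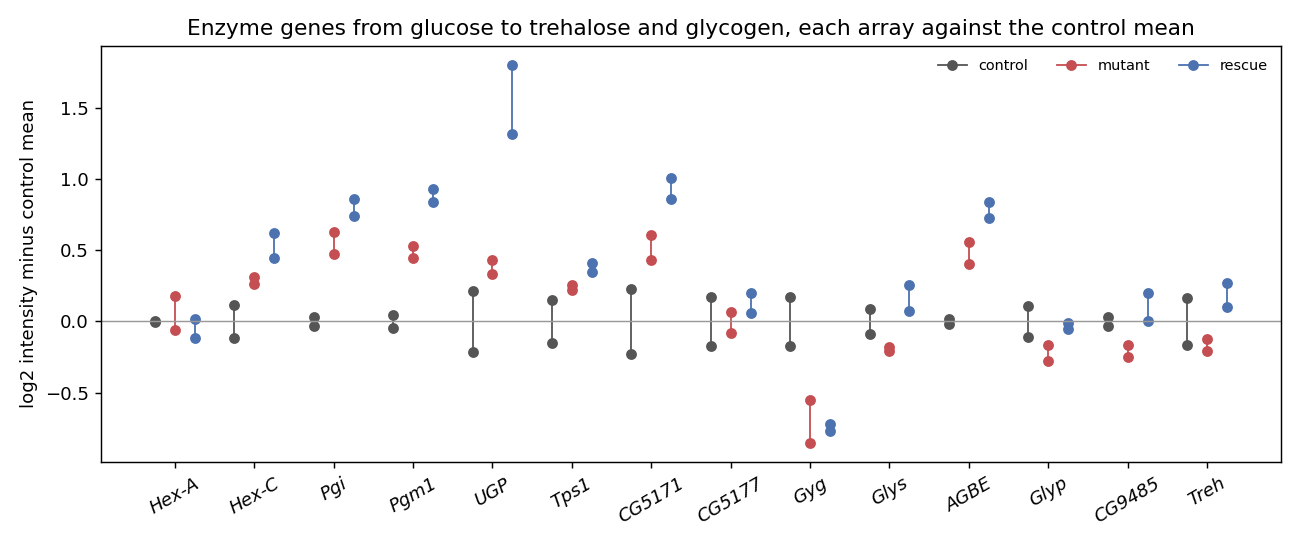
Log2 intensity of 14 enzyme genes on each array minus the mean of the control arrays, with 1 point per array and a line joining the replicates of a group. Genes were selected by their place between glucose, trehalose and glycogen. Hex-C, Pgi, Pgm1, UGP, Tps1, CG5171 and AGBE are ordered control, mutant, rescue from low to high. Gyg is below the control on all 4 mutant and rescue arrays.

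Of 25 measured genes of sugar transport, 2 rose in the mutant (CG6484 and nebu) and 4 fell (sut1, Slc45-1, pippin and CG8249), beside 6.88% and 3.88% of all probe sets. CG8249, a predicted sugar transporter gene, read 673.9 and 469 in control heads, 350.9 and 331.9 in mutant heads and 545.6 and 566.9 in rescue heads, which put the rescue back within the control range. It fell by 0.72 ± 0.16 (adjusted p = 0.0328) and its difference between rescue and mutant was 0.70 ± 0.16 (adjusted p = 0.102, limma). The fall was 0.46 and 0.98 without control replicates 1 and 2, and it passed in these 2 of the 6 fits with 1 array left out (adjusted p = 0.0158 and 0.00162). The transporter gene pippin had the same order of groups, at 517.9 and 496, then 400.8 and 408.7, then 492.1 and 518.2. It fell by 0.32 ± 0.077 in the mutant (adjusted p = 0.0408), and rescue and mutant differed by 0.32 ± 0.077 (adjusted p = 0.12, limma). The fall of pippin passed in 0 of 6 fits with 1 array left out (limma, lowest adjusted p = 0.0567). Slc45-1, of the SLC45 sugar transporter family, fell by 0.50 ± 0.094 (adjusted p = 0.0185), and sut1 by 0.43 ± 0.11 (adjusted p = 0.0489, limma), which passed in 1 of 6 such fits.

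In the other direction, CG6484, a predicted sugar transporter gene, read 53 and 40.7 in control heads, 82.4 and 83.4 in mutant heads and 102.9 and 91.8 in rescue heads. It rose by 0.84 ± 0.13 in the mutant (adjusted p = 0.0101) and by 1.07 ± 0.13 in the rescue against control (adjusted p = 0.00413, limma). The sugar transporter gene nebu read 1670.1 and 1560.8 in control heads, 2192.4 and 2209.6 in mutant heads and 2265.3 and 2049.3 in rescue heads, rising by 0.45 and 0.42 against control (adjusted p = 0.0201 and 0.0247, limma). Against control the rescue was also higher in CG31100 (0.51, adjusted p = 0.0154) and CG8837 (0.44, adjusted p = 0.0213), and lower in sut1 (-0.50, adjusted p = 0.0297, limma). The other genes of the sugar transport list passed in no comparison.

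The calls of these other genes rested on single arrays in part. Of the 9 mutant calls, 8 were kept without control replicate 1, 5 without control replicate 2, none without mutant replicate 1, 1 without mutant replicate 2, and 5 without either rescue array. Of the 11 rescue calls against control, 11 and 6 were kept without control replicate 1 and 2, 7 without either mutant array, and 2 and 4 without rescue replicate 1 and 2. An index of the 5' to 3' ratios as a covariate kept 8 of the 9 and 3 of the 11. A group left with 1 array is assumed in these fits to vary like the other groups.

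**Figure D4:**
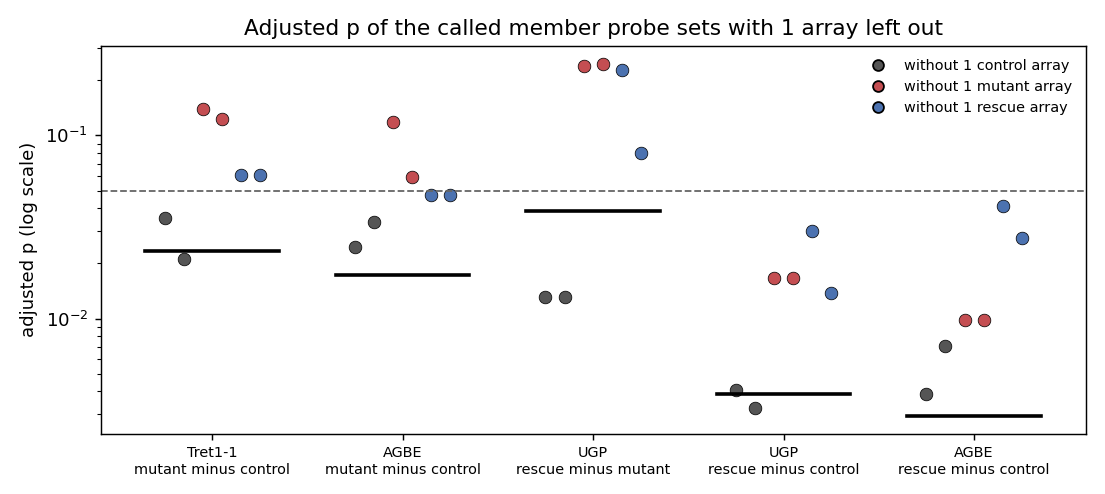
Adjusted p (log axis) of the 5 called differences of the members when 1 of the 6 arrays was left out, with 1 point per array coloured by its group, a bar at the value with all arrays and a dashed line at 0.05. Both differences between rescue and control stayed under 0.05 in all 6 fits, that of UGP between rescue and mutant in 2, that of AGBE between mutant and control in 4 and that of Tret1-1 in 2.

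For each member probe set that passed in a comparison, the genes with the closest pattern over the 6 arrays were found by the Euclidean distance of centred log2 values, among 11973 other genes. The nearest to AGBE were CycJ, a cyclin gene (distance 0.09), CG31636 (0.098) and Pgi (0.106). The nearest to Tret1-1 were CG18467 (0.108), Nepl3, a gene of a neprilysin-like peptidase (0.109), and CG32243 (0.114). Nepl3 read only 13.3 to 18.6 over the 6 arrays, close to the dim control probe sets. For UGP the distances were larger, and its nearest were CG3534 (0.609), Mec2 (0.654) and CG13796 (0.657). These 3 genes correlated with UGP over the 6 arrays at 0.947, 0.937 and 0.944. The values were not scaled, so a gene with larger differences between arrays can have larger distances. CG3534 read 249.4 and 288.4 in control heads, 566.1 and 435.3 in mutant heads and 1018.8 and 907.6 in rescue heads. The distance describes 6 arrays of 3 groups, so many genes with the same order of groups lie near each other.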

How the data were processed

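Per the submitters' processing notes, the authors summarised the arrays with RMA, with no version stated there. The deposited table holds linear intensity values, so log2 was taken first. RMA sets the arrays to a common distribution, which hides any change shared by all transcripts. The table gives no detection calls, and 2 arrays a group limit the precision. All columns were used. The table has 18952 probe sets, of which 183 are controls and were not tested. Of the 18769 tested, 13647 had 1 symbol, 402 several and 4720 none. Names came from the platform annotation and the RefSeq genes of assembly Release 6 plus ISO1 MT, used without coordinates.

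limma 3.58.1 in R 4.3.3 was fitted to all 6 arrays (3 groups, two-sided, 3 residual degrees of freedom plus a prior of 4), with Benjamini-Hochberg adjustment over the 18769 probe sets in each comparison. The fit was tested on simulated data. P-values set each group difference against the spread between replicates, which the prior draws toward that of all probe sets. The separate origin of the replicates is known only from the word biological in the titles. Every member is named, and other pathway genes are named where they passed in at least 1 comparison. Alternatives were 1 array left out, 2 groups only, array weights, a covariate for the 5' to 3' ratios, a replicate block, an intensity-dependent prior, an offset of 16, a further quantile normalization and a filter on mean intensity under 32. The members and lists were chosen with earlier results of these data known.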

Additional observations from a re-analysis of the deposited data

How the results depend on the processing

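The 5 called differences of the members kept their sign under all alternatives run. In many of these the estimate itself does not change, so the sign could not turn. They were 2 groups only, array weights, the replicate block, the intensity-dependent prior, the intensity filter and an array left out of the group not compared. Both rescue calls against control (UGP and AGBE) passed under each alternative that kept 2 arrays in each compared group. With 1 array left out the called members numbered 0 to 3 between mutant and control, 0 to 1 between rescue and mutant and 2 to 4 between rescue and control, against 2, 1 and 2 with all arrays. The other pathway genes called numbered 0 to 15, 0 to 2 and 2 to 16, and all probe sets called 605 to 4029, 42 to 686 and 492 to 4879, against 2020, 263 and 2266. With only the 2 compared groups in the fit, 1 member (AGBE) passed between mutant and control, 5, 2 and 7 other pathway genes passed in the 3 comparisons, and 1062, 686 and 1310 probe sets did. Array weights gave 5 other pathway genes and 771 probe sets between rescue and mutant. A covariate for the 5' to 3' ratios left 3 other pathway genes and 647 probe sets between rescue and control, and an offset of 16 left 0 members between rescue and mutant (limma, 1 of 11 without the offset).

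The replicate numbers of the titles are shared by the groups, but nothing in the labels ties them. Deviations of same-numbered replicates correlated at -0.26 for control and mutant, -0.19 for control and rescue and 0.0036 for mutant and rescue, across probe sets, so the numbers were not taken as pairs. With the replicate block 1 member (AGBE) passed between mutant and control, 0 between rescue and mutant (limma, where UGP had an adjusted p of 0.102) and 2 between rescue and control, and the probe sets called were 1277, 130 and 1379.

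Signs turned only for member differences that did not pass. With that covariate, mutant minus control was 0.070 for Glut1 1627735_at and -0.21 for 1634033_s_at, rescue minus mutant was -0.088 for 1634033_s_at, and rescue minus control was 0.055 for 1627735_at, -0.30 for 1634033_s_at, -0.11 for Treh and 0.18 for Glyp. Quantile normalization a further time gave -5.0e-04 for 1634033_s_at between mutant and control. With 1 array left out the ranges that cross 0 were, for mutant minus control, -0.29 to 0.064 (Glut1 1627735_at), -0.18 to 0.28 (1634033_s_at) and -0.013 to 0.27 (1628757_at). For rescue minus mutant they were -0.0043 to 0.20 (1634033_s_at) and -0.11 to 0.14 (1628757_at), and for rescue minus control -0.18 to 0.063 (Tret1-2), -0.14 to 0.076 (Glyp) and -0.080 to 0.38 (1634033_s_at). The cause was not tested.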
